A study of Mus musculus with 10 samples.

Results

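The sirtuin family was followed through 3 pools of mature mouse eggs, which are arrested at metaphase II (MII oocytes). The family has 7 genes, Sirt1 to Sirt7. Its promoters were taken as every 2000 bp window whose centre lay within 200 bp of an annotated start of one of these genes in the mm10 build. This gave 19 windows of the 49705 listed in any pool, at 6 of the 7 genes, and all 19 were listed in all 3 pools. Sirt5 had no such window. The pools were 3 libraries from 2-month Tet2 knockout (Tet2KO) females, 3 libraries from 11-month wild-type (WT) females and 4 libraries from 2-month WT females, all of a mixed C57BL6/129 background. Tet2 encodes an enzyme that oxidises methylated cytosine. How the Tet2 allele was made, and how many females gave the oocytes of each library, were not stated in the labels. The labels conflict on input, with 10 oocytes a sample in the series design and a single oocyte in the extraction protocol.

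Sirtuins remove acetyl and other acyl groups from lysines and use NAD as a cosubstrate, so that their activity follows the NAD supply of the cell. Sirt1, Sirt6 and Sirt7 act mainly in the nucleus, Sirt2 mainly in the cytoplasm, and Sirt3, Sirt4 and Sirt5 in mitochondria. In oocytes the family has been studied for spindle assembly, control of oxidative stress and maternal age. Promoters rich in CpG sites, as in most housekeeping genes, usually stay free of DNA methylation, whereas oocytes methylate the bodies of genes that they transcribe.

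The sequences below are read 5′ to 3′ on the strand of the sirtuin gene and end at the base before its start. Capitals mark CpG dinucleotides, the sites at which methylation was called. Sirt1 is shown as the most CpG-dense start of the family and Sirt4 as the member whose start window had the fewest covered CpG positions. For Sirt2 and Sirt3 the whole gap to the start of the divergent neighbour is shown, because each of these windows serves 2 genes. The sequences are RefSeq's for GRCm38.p6, the assembly that mm10 represents, at chr10:63339036-63339285 (minus strand), chr7:28766645-28766751 (plus), chr7:140882310-140882393 (minus) and chr5:115484298-115484547 (minus).
Sirt1: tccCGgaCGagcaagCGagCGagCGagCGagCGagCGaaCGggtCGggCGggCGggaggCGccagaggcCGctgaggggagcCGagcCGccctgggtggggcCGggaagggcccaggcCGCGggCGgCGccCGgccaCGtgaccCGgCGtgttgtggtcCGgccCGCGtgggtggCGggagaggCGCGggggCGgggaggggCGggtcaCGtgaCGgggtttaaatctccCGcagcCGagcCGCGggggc
Sirt2 to Nfkbib: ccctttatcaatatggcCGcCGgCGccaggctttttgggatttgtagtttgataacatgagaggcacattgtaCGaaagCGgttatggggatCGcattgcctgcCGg
Sirt3 to Psmd13: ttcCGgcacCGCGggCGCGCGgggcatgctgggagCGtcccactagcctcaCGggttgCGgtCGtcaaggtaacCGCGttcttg
Sirt4: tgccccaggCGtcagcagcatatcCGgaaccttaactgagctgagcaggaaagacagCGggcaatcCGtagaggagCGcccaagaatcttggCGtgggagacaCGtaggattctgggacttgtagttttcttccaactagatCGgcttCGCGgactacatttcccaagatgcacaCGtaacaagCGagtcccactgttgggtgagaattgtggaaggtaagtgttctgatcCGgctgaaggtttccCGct

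The 250 bases before the Sirt1 start held 39 CpG sites, a number that 1.56% of 32851 RefSeq promoters of that length reached. The other starts of the family held 12 to 21, with 12 at Sirt7, 13 at Sirt5 and 14 at Sirt4, against a median of 6 over all promoters. The CpG motif is the 2 letters CG, which read the same on both strands, and 92.1% of promoters held at least 1. The palindrome CACGTG, an E-box with a CpG at its centre, occurred 2 times before the Sirt1 start and at no other listed start of the family. At least 1 copy stood in 6.02% of all promoters, and 2 or more in 0.429%. The gap between the Sirt2 and Nfkbib starts was 107 bases with 7 CpG sites, and that between Sirt3 and Psmd13 was 84 bases with 12.

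A level is the share of CpG calls in a window that were read as methylated, in percent. Bisulfite calls do not separate methylcytosine from hydroxymethylcytosine. A pool has only 1 value for a window, so no comparison has a replicate check and no p-value is given. Intervals are 95% intervals, Wilson's for a level and Newcombe's for a difference. They cover counting error only and treat every call as independent. Calls from neighbouring sites of the same read and from PCR copies are not independent, so the intervals can be too narrow even for that error. The median nuclear window held 75 calls in Tet2KO, 159 in 11-month WT and 100 in 2-month WT. Imprinted genes were read at 1 window each, within 200 bp of a RefSeq start, which need not cover the methylated control region. Of 12 measured genes whose promoter or control region was listed as methylated in oocytes, 9 were above 50% in every pool, and Grb10, Inpp5f and Peg12 were under 5% in every pool. Low levels at such a window therefore do not show that an oocyte mark was missing. Of 2 measured genes methylated on the sperm-derived allele, Rasgrf1 was at 0% of 212 calls in Tet2KO, 2.33% of 601 in 11-month WT and 0% of 223 in 2-month WT. Meg3, the other gene methylated on the sperm-derived allele, was at 2.22% of 45 calls in Tet2KO, 6.67% of 90 in 11-month WT and 23.4% of 107 in 2-month WT. Both genes were listed to be low in oocytes, and Meg3 in 2-month WT departed from that. The reason was not tested. The window at the Tet2 start lay at 2.87% in Tet2KO (349 calls), 7.12% in 11-month WT (969 calls) and 14.0% in 2-month WT (214 calls). This does not check the genotype labels, since a deleted allele need not alter this level.

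Sirtuin starts taken from RefSeq carried little methylation in all 3 pools. Over the 19 windows the median level was 3.42% in Tet2KO, 2.88% in 11-month WT and 2.79% in 2-month WT, with ranges of 0% to 12.9% in Tet2KO, 0.351% to 15.3% in 11-month WT and 0% to 17.7% in 2-month WT. Over the 40537 nuclear windows listed in every pool the medians were 2.17% in Tet2KO, 2.72% in 11-month WT and 3.23% in 2-month WT. Under 5% lay 15 of 19 sirtuin windows in Tet2KO, 16 in 11-month WT and 11 in 2-month WT. The same held for 65.2% of all shared windows in Tet2KO, 64.2% in 11-month WT and 58.9% in 2-month WT. Among the 23223 shared windows that reached 50 or more covered CpG positions in some pool, it held for 80.9% in Tet2KO, 80.2% in 11-month WT and 70.6% in 2-month WT. Windows of the same gene overlap, and many held exactly the same calls, so the 19 windows gave 12 distinct sets of values. These were 1 at Sirt1, 2 at Sirt2, 3 at Sirt3 and 2 each at Sirt4, Sirt6 and Sirt7.

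**Figure D1:**
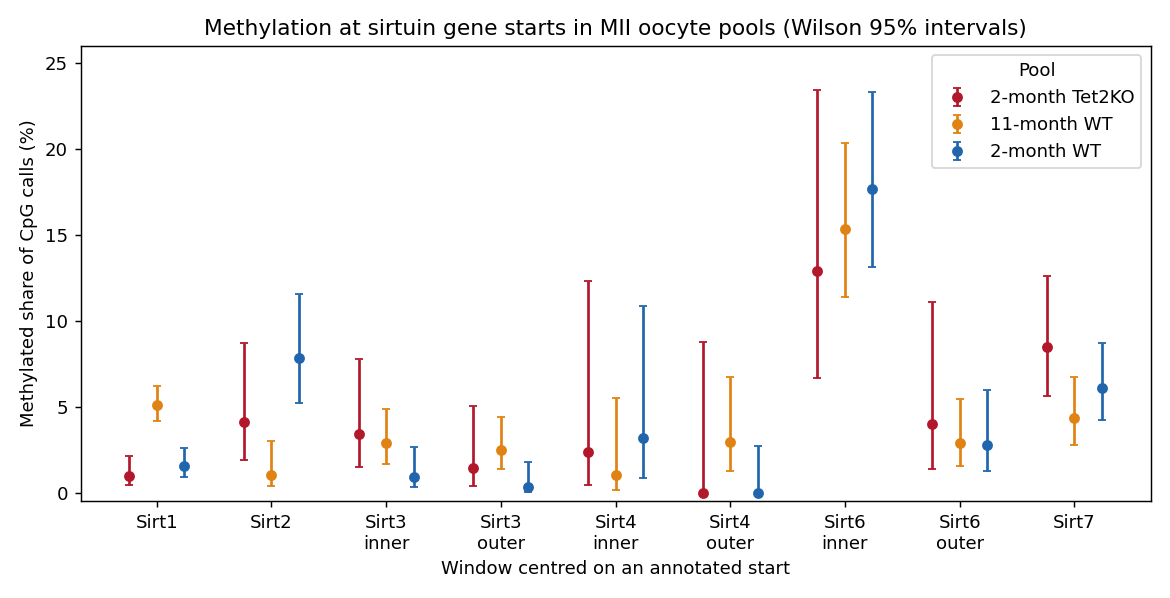
Methylated share of CpG calls in percent (vertical axis) at the 9 windows nearest to an annotated sirtuin start (horizontal axis), in 2-month Tet2KO, 11-month WT and 2-month WT pools; points are pooled levels and bars Wilson 95% intervals for counting error, and inner and outer name the downstream and upstream start of a gene. The inner Sirt6 window is the highest in each pool, at 12.9% in Tet2KO, 15.3% in 11-month WT and 17.7% in 2-month WT, and Sirt1 in 11-month WT lies at 5.10%, above both other pools.

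Ranked within each pool over the 9 windows nearest to an annotated start, the inner Sirt6 window came at the top everywhere. In Tet2KO it was followed by Sirt7 and Sirt2, in 11-month WT by Sirt1 and Sirt7, and in 2-month WT by Sirt2 and Sirt7. Neighbours in these orders were mostly not separable by counting error. The step from inner Sirt6 to the next window was 10.2 points in 11-month WT (interval 6.12 to 15.3) and 9.85 points in 2-month WT (3.98 to 16.1). In Tet2KO that step was 4.44 points (-3.03 to 15.4), and no other step in any pool had an interval that excluded 0. The plot of levels at the 9 windows shows the same order.

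Sirt1, a nuclear deacetylase of histones and transcription factors, had its highest level in the older oocytes. Its window (chromosome 10, 63338033 to 63340032) was methylated at 6 of 612 calls in Tet2KO, 93 of 1825 in 11-month WT and 13 of 842 in 2-month WT. The levels were 0.980% in Tet2KO (0.450 to 2.12), 5.10% in 11-month WT (4.18 to 6.20) and 1.54% in 2-month WT (0.904 to 2.62). The interval of the 11-month WT pool lay above those of both 2-month pools, which overlapped each other. Weighting every CpG position equally, the deposited fraction gave 0.727% in Tet2KO, 6.34% in 11-month WT and 1.00% in 2-month WT. The window had 185 covered positions with 3.31 calls each in Tet2KO, 206 with 8.86 in 11-month WT and 196 with 4.30 in 2-month WT, so the depth was also highest in 11-month WT, and its part in the result was not tested. As many covered positions were found in 0.686% of shared windows in 11-month WT. A second window 3 bp away held the same calls.

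Sirt2, the mainly cytoplasmic member known as a tubulin deacetylase, differed the other way between the WT pools. Its start on chromosome 7 lies 108 bp from that of Nfkbib, which encodes an inhibitor of the NF-kappa-B transcription factors and is read from the opposite strand. The window nearest the Nfkbib start (28765641 to 28767640) had 6 of 145 methylated calls in Tet2KO, 1 of 285 in 11-month WT and 22 of 281 in 2-month WT. These were 4.14% in Tet2KO (1.91 to 8.73), 0.351% in 11-month WT (0.0620 to 1.96) and 7.83% in 2-month WT (5.23 to 11.6). The 3 windows nearest the Sirt2 start gave the same counts in both 2-month pools and 3 of 287, or 1.05% (0.356 to 3.03), in 11-month WT. The 2-month WT interval lay above that of 11-month WT, and the Tet2KO interval overlapped both. By the deposited fraction the windows nearest the Sirt2 start were at 1.79% in Tet2KO, 2.85% in 11-month WT and 12.1% in 2-month WT, so the order of the lower pools depended on how positions were weighted.

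Overlapping windows located part of the Sirt2 calls. Just outside the 200 bp limit, a window centred 238 bp upstream of the start was at 0% of 137 calls in Tet2KO, 0.340% of 294 in 11-month WT and 7.89% of 279 in 2-month WT. The window centred 501 bp downstream was at 4.32% of 139 in Tet2KO, 4.07% of 270 in 11-month WT and 16.2% of 228 in 2-month WT. It is listed under its own Ensembl transcript, and whether that is a Sirt2 start was not settled with the annotation used. Moving the window 126 bp downstream from the upstream one added all 6 methylated calls of Tet2KO, so these lay between 28767515 and 28767640. In 2-month WT the 22 methylated calls were the same number in both. Moving it a further 438 bp, from the last window inside the limit, added at least 15 methylated calls in 2-month WT and 8 in 11-month WT, between 28767816 and 28768253, inside the Sirt2 gene. No net gain was seen there in Tet2KO.

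**Figure D2:**
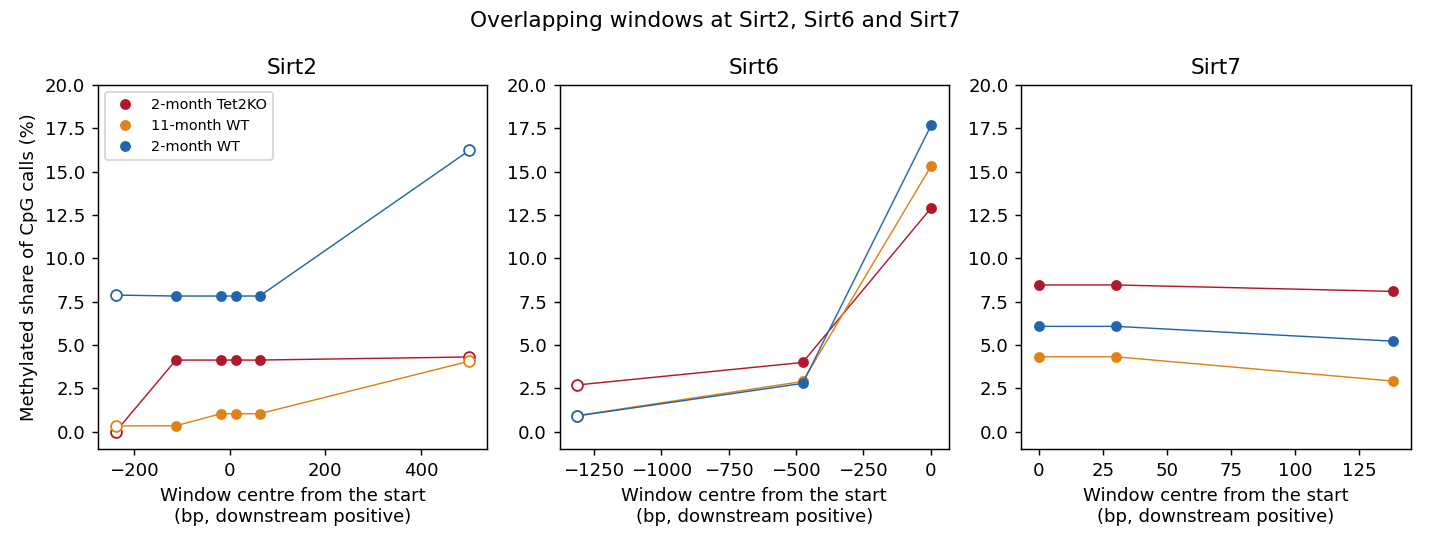
Methylated share of CpG calls in percent against the distance of the window centre from an annotated start in bp, downstream positive, for Sirt2, Sirt6 (inner start) and Sirt7; filled points are windows within 200 bp of a start, open points are neighbouring windows beyond it, and lines join windows of 1 pool. The level of Sirt2 in 2-month WT reaches 16.2% at the window 501 bp downstream, and the level of Sirt6 in all 3 pools is highest at the inner start.

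Sirt3, the main deacetylase of mitochondria, stayed under 5% in every window and pool when taken over calls. It has starts at 140882309 and 140881869 on chromosome 7, and Psmd13, a proteasome subunit gene, starts 85 bp upstream of the outer one. The outer window was at 1.42% of 141 calls in Tet2KO (0.390 to 5.02), 2.47% of 445 in 11-month WT (1.39 to 4.37) and 0.313% of 319 in 2-month WT (0.0554 to 1.75). The inner window was at 3.42% of 146 in Tet2KO, 2.88% of 451 in 11-month WT and 0.923% of 325 in 2-month WT. The pair of windows centred 154 and 162 bp upstream of the outer start, the farthest still inside the 200 bp limit, was at 2.82% of 142 in Tet2KO, 2.33% of 430 in 11-month WT and 0.627% of 319 in 2-month WT. By the deposited fraction this pair was at 5.66% in Tet2KO, 3.35% in 11-month WT and 2.5% in 2-month WT. In all of these sets 2-month WT had the lowest level, on 1 to 3 methylated calls.

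Sirt4, a mitochondrial enzyme that acts on glutamate and lipoate metabolism, rested on the fewest calls. The inner window (chromosome 5, 115483298 to 115485297) had 1 of 42 methylated calls in Tet2KO, 1 of 99 in 11-month WT and 2 of 63 in 2-month WT. Its levels of 2.38% in Tet2KO, 1.01% in 11-month WT and 3.17% in 2-month WT were not separable at this depth. The outer window, at the 5′ end of the RefSeq gene, had 0 of 40 methylated calls in Tet2KO, 5 of 169 in 11-month WT and 0 of 137 in 2-month WT. There, a count of 0 allows a level of up to 7.5% in Tet2KO and 2.19% in 2-month WT, and the 11-month level was 2.96% (1.27 to 6.74). That window is centred next to the small nuclear RNA gene Gm24407, and the tables do not say which gene its identifier belongs to. The divergent gene Gm42007 starts 153 bp upstream of the inner start. The inner window and the bases shown for Sirt4 therefore cover that start too. Outside the limit, a window centred 428 bp upstream of the inner start, in Gm42007, was at 2.44% of 41 calls in Tet2KO, 0% of 97 in 11-month WT and 3.70% of 81 in 2-month WT.

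Sirt5, the mitochondrial desuccinylase and demalonylase, could not be followed at its start, which RefSeq places at 43365389 to 43365535 on chromosome 13. The nearest window inside the gene was centred 5174 bp downstream (43369710 to 43371709), where no other RefSeq gene lies. The tables list this window under an Ensembl transcript, and whether that is a transcript of Sirt5 with its own start there was not settled with the annotation used. If it is, the family has a start window with nearly full methylation that the count of 19 and the low levels above leave out. It was methylated at 27 of 29 calls in Tet2KO, 67 of 68 in 11-month WT and 47 of 48 in 2-month WT. The levels were 93.1% in Tet2KO (78.0 to 98.1), 98.5% in 11-month WT (92.1 to 99.7) and 97.9% in 2-month WT (89.1 to 99.6). Their intervals overlapped, and each was far above the level of every window within 200 bp of a RefSeq sirtuin start. Levels above 90% were found in 10.1% of all nuclear windows in Tet2KO, 12.0% in 11-month WT and 10.7% in 2-month WT.

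Sirt6, a chromatin-bound deacetylase with roles in DNA repair and telomere upkeep, held the highest start window of the family. At the inner start (chromosome 10, 81626321 to 81628320) 8 of 62 calls were methylated in Tet2KO, 38 of 248 in 11-month WT and 38 of 215 in 2-month WT. The levels were 12.9% in Tet2KO (6.69 to 23.4), 15.3% in 11-month WT (11.4 to 20.3) and 17.7% in 2-month WT (13.2 to 23.3), and their intervals overlapped. By the deposited fraction this window was at 17.5% in Tet2KO, 18.0% in 11-month WT and 15.8% in 2-month WT. The order of the pools thus depended on how positions were weighted. The outer window, shifted by 477 bp, was at 4.0% of 75 calls in Tet2KO, 2.90% of 310 in 11-month WT and 2.79% of 215 in 2-month WT. Its centre lies between the outermost Sirt6 start and a start of the divergent gene Ankrd24, 29 bp apart. The 2 windows share the rest of their length, so the excess of methylated calls in the inner one must lie in the 477 bp that it alone covers (81626321 to 81626797), inside the Sirt6 gene. That stretch held at least 5 methylated calls in Tet2KO, 29 in 11-month WT and 32 in 2-month WT. These were 62.5% of the methylated calls of the inner window in Tet2KO, 76.3% in 11-month WT and 84.2% in 2-month WT. Beyond the limit, a window 842 bp upstream of the outermost start and named by position for Ankrd24, was at 2.70% in Tet2KO, 0.939% in 11-month WT and 0.917% in 2-month WT.

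Sirt7, a nucleolar member that acts on ribosomal gene transcription, had its highest level in Tet2KO when taken over calls. The window centred on its start (chromosome 11) had 21 of 248 methylated calls in Tet2KO, 18 of 416 in 11-month WT and 27 of 444 in 2-month WT. The levels were 8.47% in Tet2KO (5.60 to 12.6), 4.33% in 11-month WT (2.75 to 6.74) and 6.08% in 2-month WT (4.21 to 8.70), with overlapping intervals. The window centred 138 bp downstream, at the end of the microRNA gene Mir6936, was at 8.10% in Tet2KO (5.30 to 12.2), 2.93% in 11-month WT (1.68 to 5.05) and 5.23% in 2-month WT (3.51 to 7.72). There the Tet2KO interval lay above that of 11-month WT, and the 2-month WT interval overlapped both. Shifting the window by 108 bp towards the neighbouring gene Mafg changed the counts by a net 1 methylated of 1 call in Tet2KO, 6 of 6 in 11-month WT and 4 of 4 in 2-month WT. The deposited fraction at the Sirt7 start was higher than the level in every pool, at 12.9% in Tet2KO, 8.15% in 11-month WT and 13.3% in 2-month WT. By this fraction 2-month WT was the highest there, so which pool led depended on how positions were weighted.

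Set side by side, 11-month and 2-month WT oocytes differed by under 10 points at every sirtuin window within the 200 bp limit, over calls. This comparison asks how promoter methylation differs with maternal age. None of the 19 windows lay 20 points or more apart, against 6.6% of 45241 nuclear windows. None lay 10 points apart, against 16.2%. No sirtuin window could be 20 points lower at 11 months, since the highest level in 2-month WT was 17.7%. Taken over calls, only inner Sirt6 lay above 10% there, so no other window could fall by 10 points. The shares over all nuclear windows include windows of every level and depth. The interval of the difference lay above 0 at 4 windows, against 9.81% of all, and below 0 at 4, against 15.2%. With the same calls counted once, these were 2 of 12 distinct sets above 0 and 2 below. The higher ones were both Sirt1 windows, by 3.55 points (2.13 to 4.83), and the outer pair at Sirt3, by 2.16 points (0.35 to 4.08). The lower ones were the 4 Sirt2 windows, at -7.48 points (-11.2 to -4.42) nearest Nfkbib and -6.78 points (-10.6 to -3.51) at the Sirt2 start. Just beyond the 200 bp limit, the Sirt2 difference was -7.55 points (-11.3 to -4.49) at 238 bp upstream. At 501 bp downstream it was -12.2 points (-17.8 to -6.93), past 10 points. At Sirt4, Sirt6 and Sirt7 differences ran from -2.35 to 2.96 points, each with an interval that included 0, as did the intervals at the remaining Sirt3 windows. By the deposited fraction the age difference was -11.8 points at the Sirt2 window nearest Nfkbib, and -5.45 points downstream and -5.20 points at the start of Sirt7, outside their counting intervals. The median over the 19 windows was 0.11 points, with 10 higher and 9 lower, and over all windows 0. That median was -0.82 points when windows with the same calls were counted once, so its sign rests on repeated windows.

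Between Tet2KO and WT oocytes at 2 months, no sirtuin window within the 200 bp limit had an interval of the difference that excluded 0. This comparison asks how loss of Tet2 goes with promoter methylation. None of the 19 windows lay 20 points or more apart, against 6.57% of 40706 nuclear windows, and none lay 10 points apart, against 16.3%. Here too, the highest sirtuin level in 2-month WT, 17.7%, left no room for a fall of 20 points. No interval lay above 0, against 7.58% of all windows, or below 0, against 13.2%. Differences ran from -4.77 points at inner Sirt6 (-13.2 to 6.70) to 2.87 points at the downstream Sirt7 window (-0.88 to 7.30). By the deposited fraction inner Sirt6 differed by 1.73 points, with the opposite sign. Sirt1 differed by -0.56 points (-1.77 to 0.75) and Sirt2 by -3.69 points (-8.04 to 1.59). By the deposited fraction the 4 Sirt2 windows differed by -10.3 points, past 10 points and outside that interval. Just beyond the 200 bp limit, 2 further windows at Sirt2 had intervals below 0. They differed by -7.89 points (-11.6 to -4.10) at 238 bp upstream, centred in Nfkbib, and -11.9 points (-17.7 to -5.54) at 501 bp downstream. The Sirt1 interval holds no difference beyond 2 points either way, while the Sirt4 and Sirt6 intervals allow differences of several points. The median was 1.10 points, with 10 windows higher, 8 lower and 1 equal, against -0.24 points over all windows.

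Tet2KO at 2 months and WT at 11 months differ in both genotype and age, which cannot be told apart here. None of the 19 windows lay 20 points or more apart, against 4.23% of 41425 nuclear windows, and none lay 10 points apart, against 11.9%. With the highest sirtuin level in 11-month WT at 15.3%, none could be 20 points lower in Tet2KO. The interval lay above 0 at 7 windows, against 7.7% of all, and below 0 at 2, against 7.8%. With the same calls counted once, these were 4 of 12 distinct sets above 0, all at Sirt2 and Sirt7, and 1 below. The lower ones were the Sirt1 windows, at -4.12 points (-5.34 to -2.65). The higher ones were the Sirt2 windows, by 3.79 points (1.04 to 8.39) and 3.09 points (0.11 to 7.74, but -1.06 points by the deposited fraction), and the Sirt7 windows, by 5.17 points (1.66 to 9.43) downstream and 4.14 points (0.40 to 8.56) at the start. All 3 comparisons share pools, so their differences are not independent of each other.

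**Figure D3:**
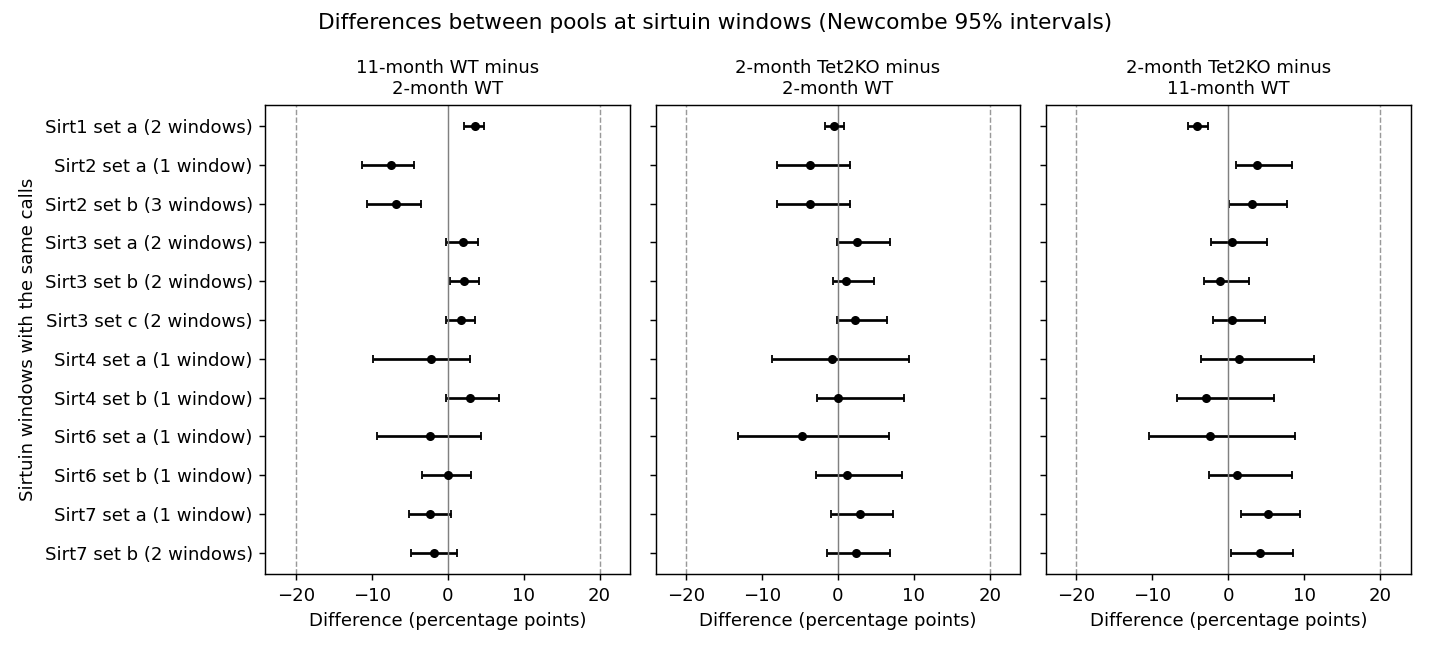
Differences in methylation level in percentage points (horizontal axis) at the 12 distinct sets of sirtuin windows (vertical axis), for 11-month WT minus 2-month WT, Tet2KO minus 2-month WT and Tet2KO minus 11-month WT; bars are Newcombe 95% intervals for counting error and dashed lines mark 20 points. Every point, taken over calls, lies within 10 points of 0, with Sirt2 at -7.48 and -6.78 points in the age comparison and Sirt1 at -4.12 points in Tet2KO minus 11-month WT.

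Genes that make NAD, the cosubstrate of all sirtuins, also had mostly low levels at their starts. Of 22 genes of NAD synthesis and salvage 12 had a window in every pool, of which 9 were under 5% in Tet2KO, 9 in 11-month WT and 10 in 2-month WT. Over all shared windows those shares were 65.2% in Tet2KO, 64.2% in 11-month WT and 58.9% in 2-month WT. None differed by 20 points in either comparison with 2-month WT, against 6.6% of all windows with age and 6.57% in Tet2KO. The interval lay above 0 at 2 genes with age, against 9.81% of all windows, and at 2 in Tet2KO, against 7.58%. Each gene's window was the one with the most calls in its shallowest pool, while these shares cover windows of any depth. Whether an interval excludes 0 depends on depth, so the counts and shares are not like for like. Nadsyn1, which makes NAD from its acid precursor, was at 11.9% of 42 calls in Tet2KO, 5.88% of 238 in 11-month WT and 0.870% of 115 in 2-month WT. It was higher by 5.01 points with age (0.47 to 8.83) and by 11.0 points in Tet2KO (3.28 to 24.2). Nmnat1, the nuclear adenylyltransferase of NAD synthesis, was at 9.38% in Tet2KO, 4.58% in 11-month WT and 1.63% in 2-month WT. Nmnat2, its cytoplasmic relative, was at 1.77% in Tet2KO, 4.46% in 11-month WT and 0.671% in 2-month WT. Haao went the other way, by -4.88 points with age (-17.6 to 1.69) and -7.69 points in Tet2KO (-20.3 to 3.41). Afmid differed by 1.46 points with age (-6.77 to 8.28) and 11.1 points in Tet2KO (-1.13 to 28.7). Nmrk2 differed by 4.66 points with age (-3.77 to 13.0) and -3.03 points in Tet2KO (-10.4 to 11.4).

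The other enzymes that consume NAD included Parp2, which with Tubb5 was 1 of 2 genes in the 4 related lists to pass 20 points against 2-month WT. Parp2, a poly(ADP-ribose) polymerase of DNA repair, was at 0% of 94 calls in Tet2KO, 1.47% of 204 in 11-month WT and 25.2% of 329 in 2-month WT. The difference was -23.8 points with age (-28.8 to -18.6) and -25.2 points in Tet2KO (-30.2 to -19.3), which makes 1 of 6 measured consumers in each comparison, against 6.6% of all windows with age and 6.57% in Tet2KO. By the deposited fraction the difference was -18.0 points with age and -19.5 points in Tet2KO, short of 20. Tnks2, a tankyrase, was at 1.86% in Tet2KO, 0.752% in 11-month WT and 13.5% in 2-month WT. Parp1, the main polymerase of this family, was at 6.10% in Tet2KO, 0.286% in 11-month WT and 1.12% in 2-month WT, higher in Tet2KO by 4.98 points (1.50 to 9.80).

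The zinc-dependent histone deacetylases, which share substrates with sirtuins but do not use NAD, had 7 of 11 genes measured. None lay 20 points apart, against 6.6% of all windows with age and 6.57% in Tet2KO. With 7 genes, a count of none cannot be told from these shares. With age the interval lay above 0 at 1 gene, against 9.81%, and below 0 at 2, against 15.2%. In Tet2KO it lay above 0 at none, against 7.58%, and below 0 at 1, against 13.2%. As for the NAD genes, counts and shares are not like for like. Hdac2, a nuclear class I enzyme, was at 1.17% of 256 calls in Tet2KO, 0.993% of 806 in 11-month WT and 8.12% of 382 in 2-month WT. It differed by -7.12 points with age (-10.3 to -4.60) and by -6.94 points in Tet2KO (-10.2 to -3.72). Hdac11 differed with age by -6.28 points (-10.9 to -2.95) and Hdac4 by 3.27 points (1.28 to 4.92). Hdac9, named here after its values were seen, was at 93.3% of 15 calls in Tet2KO (70.2 to 98.8), 100% of 50 in 11-month WT and 97.4% of 38 in 2-month WT. It was the only one of the 7 above 50%, and its Tet2KO depth was under the 20 calls required of named genes.

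Among 38 regulators and substrates of sirtuins 31 were measured, and 1 was lower by 20 points or more in each comparison with 2-month WT and none higher, against 6.6% of all windows 20 points apart with age and 6.57% in Tet2KO. Their median difference was -0.81 points with age and -0.54 points in Tet2KO, against 0 and -0.24 points over all windows. With age the interval lay below 0 at 11 of them, against 15.2% of all windows, and above 0 at 3, against 9.81%. In Tet2KO it lay below 0 at 8, against 13.2%, and above 0 at 1, against 7.58%. As for the NAD genes, these windows were picked for depth and the shares were not, so the counts are not like for like. Tubb5, a beta-tubulin, was at 1.03% in Tet2KO, 0% in 11-month WT and 22.4% in 2-month WT. By the deposited fraction its difference was -19.4 points with age and -17.4 points in Tet2KO, short of 20. Bub1b, a spindle checkpoint protein that Sirt2 deacetylates, was at 3.45% in Tet2KO, 1.85% in 11-month WT and 19.8% in 2-month WT. Ogg1, a glycosylase that removes oxidised guanine, was at 4.55% in Tet2KO, 3.17% in 11-month WT and 17.1% in 2-month WT. Acss2, the cytosolic acetyl-CoA synthetase that Sirt1 deacetylates, was at 0.658% in Tet2KO, 1.03% in 11-month WT and 14.9% in 2-month WT. At each of these 4 genes and at Parp2, Tnks2 and Hdac2, 2-month WT had the highest level of the 3 pools. The lower level at both other pools is set against the same 2-month WT pool and is therefore not 2 separate observations. These genes were also named for large differences from 2-month WT, so the pick favours genes at which that pool stands apart. Among other genes named above from these lists, 2-month WT was highest at Haao and lowest at Nadsyn1, Nmnat1, Nmnat2 and Afmid. At the rest it lay between the other pools.

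**Figure D4:**
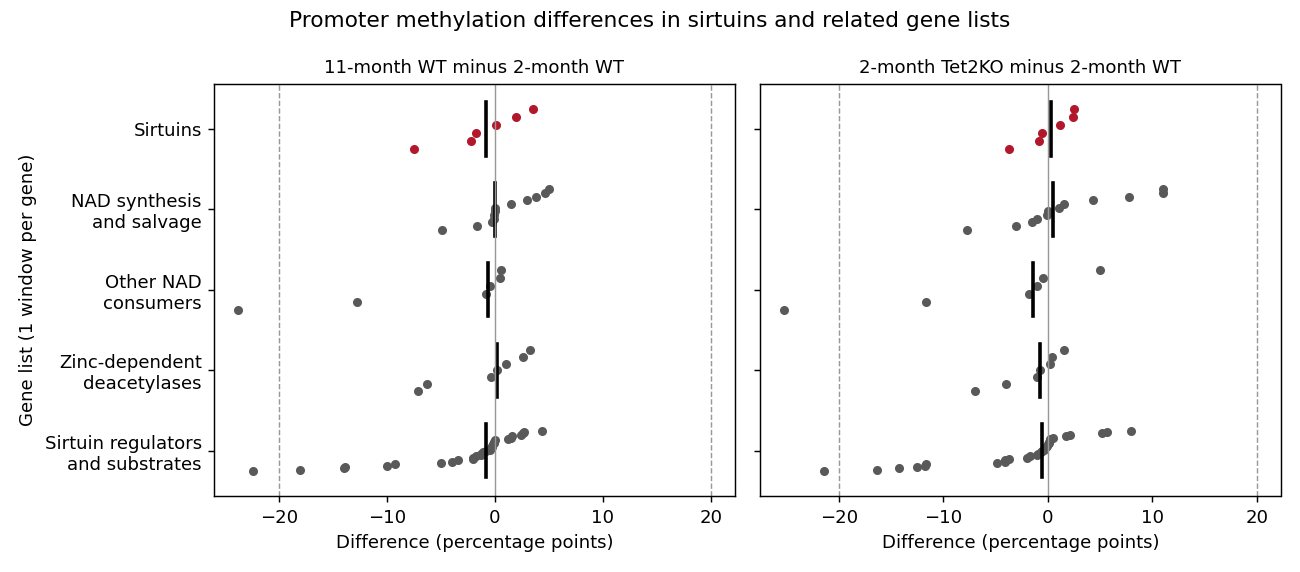
Differences in methylation level in percentage points (horizontal axis) for the sirtuins and 4 related gene lists (vertical axis) at 1 window per gene, for 11-month WT minus 2-month WT and Tet2KO minus 2-month WT; points are genes, thick bars list medians and dashed lines mark 20 points. The 6 sirtuins lie within 10 points of 0, while Parp2 (-23.8 points with age, -25.2 in Tet2KO) and Tubb5 (-22.4 and -21.4 points) lie beyond the dashed line.

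The widest range over the 3 pools in the family was 7.48 points, at the Sirt2 window nearest Nfkbib. The other genes with the most similar levels were sought among windows with at least 50 calls in each pool, by the sum of absolute differences over the 3 pools. Meis3, a homeobox gene, was closest, with a sum of 0.743 points and levels of 4.29% in Tet2KO, 0.909% in 11-month WT and 7.79% in 2-month WT. Cbx7, a polycomb protein gene, followed with a sum of 0.866 points, and Ehd4, an endocytic protein gene, with 1.44 points. Likeness over 3 pooled values is a description of these levels only.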

How the data were processed

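Low-input bisulfite libraries of MII oocytes were grouped by their titles. The submitters' processing notes name Trimmomatic, Bismark (version field 12.5) and mm10; the remaining steps were not stated. Per 2000 bp window and pool, the deposited counts give the methylated CpG calls and the deposited coverage gives all CpG calls. The deposited fraction averages the methylated share of each covered position. Listed windows carry at least 10 calls and 5 positions, and 1 incomplete last line of the 2-month WT table was left out. Depth was 8610762 calls in Tet2KO, 30431118 in 11-month WT and 15046863 in 2-month WT, overlapping windows counted repeatedly.

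The level was 100 times methylated over all calls. Starts came from RefSeq (GRCm38.p6) as transcript starts and gene 5′ ends, without pairing of the windows' identifiers with genes. Wilson and Newcombe 95% intervals were computed with numpy 2.4.6 and pandas 2.3.3 and tested on simulated data; a count of 0 allows 3 calls. With pooled values the design gave no test. For windows to count as apart, 20 points were required. Background windows were nuclear and listed in both pools. Members, lists and this design were chosen with earlier results of these data known. Text names all sirtuin windows, the 4 members of each list with the largest absolute difference in each comparison with 2-month WT (1 window per gene, at least 20 calls in each pool, some not used here), and 3 genes by likeness. Alternatives were the deposited fraction, 20 or 50 calls, distances of 10 or 1000 bp, 1 window per gene, a threshold of 10 points and, added after seeing the data, counting windows with the same calls once.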

Additional observations from a re-analysis of the deposited data

How the results depend on the processing

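No sirtuin window was 20 points apart in any of the 3 comparisons under any alternative run. With levels this low, falls of 20 points were not possible at these windows. The threshold of 10 points was run only over calls at windows within 200 bp of a start, and none reached it. By the deposited fraction some Sirt2 windows passed 10 points, as given below. With the wider distance limit, the window 501 bp downstream of the Sirt2 start passed 10 points over calls. It differed by -12.2 points with age and -11.9 points in Tet2KO minus 2-month WT. The median difference over sirtuin windows ran from -0.87 to 1.04 points for 11-month minus 2-month WT, from 0 to 1.10 for Tet2KO minus 2-month WT and from -0.26 to 1.36 for Tet2KO minus 11-month WT, so its sign is not settled for the age comparison or for the last one. By the deposited fraction, 8 of 36 differences left their counting interval, and 1 whose interval excluded 0 changed sign: the Sirt2 start in Tet2KO minus 11-month WT, at -1.06 points. Some differences whose interval included 0 changed sign too. Inner Sirt6 was among them, at 2.17 points with age and 1.73 points in Tet2KO minus 2-month WT. The age difference was then 5.34 points at Sirt1, -11.8 points at the Sirt2 window nearest Nfkbib and -5.45 and -5.20 points at Sirt7. Tet2KO minus 2-month WT was -10.3 points at Sirt2 and Tet2KO minus 11-month WT -5.61 points at Sirt1; the cause was not tested. Leaving out a replicate was not run, since the tables hold pooled values. No paired analysis was possible because the deposited columns are pooled over replicates. Depth limits Sirt4 and inner Sirt6 in Tet2KO most, at 42, 40 and 62 calls.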

Other observations

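Windows near the far ends of 2 sirtuin genes belong by position to their neighbours. Beyond the 3′ end of Sirt2, a window at the start of Rinl was methylated at 14 of 14 calls in Tet2KO, 88 of 90 in 11-month WT and 38 of 38 in 2-month WT. Beyond the 3′ end of Sirt7, a window at the start of Pcyt2, which encodes an enzyme of phosphatidylethanolamine synthesis, was at 10.6% of 216 calls in Tet2KO (7.20 to 15.5), 16.6% of 584 in 11-month WT (13.8 to 19.8) and 28.9% of 263 in 2-month WT (23.8 to 34.6). Its deposited fraction was 23.5% in Tet2KO, 26.7% in 11-month WT and 28.9% in 2-month WT, so the spread between pools was smaller when positions were weighted equally. Both windows lie outside the sirtuin promoters and were chosen after their values were seen.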
